A study of Mus musculus with 12 samples.

Results

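The small leucine-rich proteoglycans are secreted proteins of the extracellular matrix, and 10 of them were described here by the gene symbols Dcn, Bgn, Fmod, Lum, Omd, Ogn, Prelp, Aspn, Epyc and Chad. They were chosen by name and not by any measured value. Each of the 10 had a row among the 49315 genes of the deposited count table. All 10 also passed the filter on low counts, which left 16565 genes for testing.

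Each of these proteins folds into an arc of leucine-rich repeats that can bind collagen, and most carry chains of chondroitin, dermatan or keratan sulfate. In cartilage they sit on the surface of collagen fibrils, where they influence fibril thickness and spacing, and several of them also bind growth factors such as TGF-beta or cell surface receptors. The family is divided by sequence and gene structure into class I (decorin, biglycan, asporin), class II (fibromodulin, lumican, PRELP, osteoadherin), class III (epiphycan, osteoglycin) and the non-canonical classes, to which chondroadherin belongs.

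RNA had been sequenced in bulk from primary chondrocytes of the epiphyses of 5-day-old mice, with 3 samples for each of 4 genotypes: Phlpp1 KO, Phlpp2 KO, Phlpp1/2 KO (both genes) and WT. Phlpp1 and Phlpp2 encode phosphatases that act on AKT and other kinases, and the series title ties Phlpp1 to endochondral ossification. Cells were released from the tissue with collagenase, frozen, thawed and kept overnight in medium with serum before lysis, so the values describe briefly cultured cells. All samples were labelled female and no treatment was given. The strain was labelled C57BL6 for the 3 Phlpp1 KO samples, for Phlpp2 KO samples 1 and 2 and for the 3 WT samples. It was written C57BL7 for Phlpp2 KO 3, and C57BL8, C57BL9 and C57BL10 for Phlpp1/2 KO samples 1 to 3. The deleted part of each gene, and the number of animals behind a sample, are not stated in the sources used here, so p values measure the spread between these samples.

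Library totals ran from 21706337 to 33115345 counts. Phlpp1 stood at 8.77 to 9.46 CPM (read counts scaled to library size, by the TMM method of edgeR) in Phlpp1 KO and 7.71 to 8.83 CPM in Phlpp1/2 KO, against 35.1 to 43.8 CPM in WT. Phlpp2 was reduced less, to 16.8 to 19.4 CPM in Phlpp2 KO and 10.2 to 11.4 CPM in Phlpp1/2 KO, against 22.4 to 28.1 CPM in WT. The 9 detected chondrocyte markers, led by Col2a1, summed to between 27523 and 51286 CPM in every library. Those of fibroblasts and perichondrium summed to 709 to 1266 CPM, and those of osteoblasts to 250 to 679 CPM, with Col1a1 counted in both sums. Markers of endothelial cells and pericytes summed to 384 to 590 CPM, on average 456 CPM in Phlpp2 KO and 519 CPM in WT. Of these 7 markers, 6 were fitted higher in Phlpp2 KO than in WT and only Cspg4 lower (log2 fold change -0.20). That sum therefore mostly follows Cspg4. Markers of macrophages summed to at most 67.8 CPM and those of red cells to at most 0.572 CPM, with Hbb-bs and Hbb-bt at 0. Of 8 tested macrophage markers, 6 were fitted higher and 2 lower in Phlpp1/2 KO than in WT. At an unadjusted p under 0.05 by edgeR, 4 were higher, where 11.1% of all genes differed in either direction, and 0 passed adjustment. Phlpp1 KO 1 and Phlpp1/2 KO 1 held 13.9 and 3.77 CPM of Xist, which is transcribed from the inactive X chromosome of female cells, while the other 10 libraries held 278 to 587 CPM. These 2 libraries go against their label of female sex, and several of the results below are also given without them.

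The family was present at very unequal levels. Per kilobase of merged exon, which allows genes to be compared, biglycan led in every genotype, at 148 ± 9.98 CPM per kb in Phlpp1 KO, 160 ± 20.1 in Phlpp2 KO, 133 ± 16.1 in Phlpp1/2 KO and 148 ± 20.2 in WT (SD, n = 3 each). Fibromodulin came next in every genotype, at 77.1 CPM per kb over all 12 libraries. Decorin (52.1), epiphycan (41.8), lumican (39.7), PRELP (29.4) and chondroadherin (26.9 CPM per kb over all 12 libraries) followed, in an order that differed between genotypes: epiphycan averaged 45.1 and decorin 41.3 CPM per kb in Phlpp1 KO, while in WT decorin (54.2) was followed by lumican (37.4), PRELP (37.0) and epiphycan (35.4 CPM per kb). Osteoglycin (16.5), osteoadherin (8.47) and asporin (0.348 CPM per kb over all 12 libraries) closed the order in every genotype. In WT the ranges of the 3 samples overlapped between fibromodulin and decorin, between lumican, PRELP, epiphycan and chondroadherin in turn, and between osteoglycin and osteoadherin. They were apart between biglycan and fibromodulin, decorin and lumican, chondroadherin and osteoglycin, and osteoadherin and asporin. Among the 16565 genes, Bgn ranked 110 by mean CPM and Dcn 515, while Aspn ranked 13821 with 9 to 40 counts per library.

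**Figure D1:**
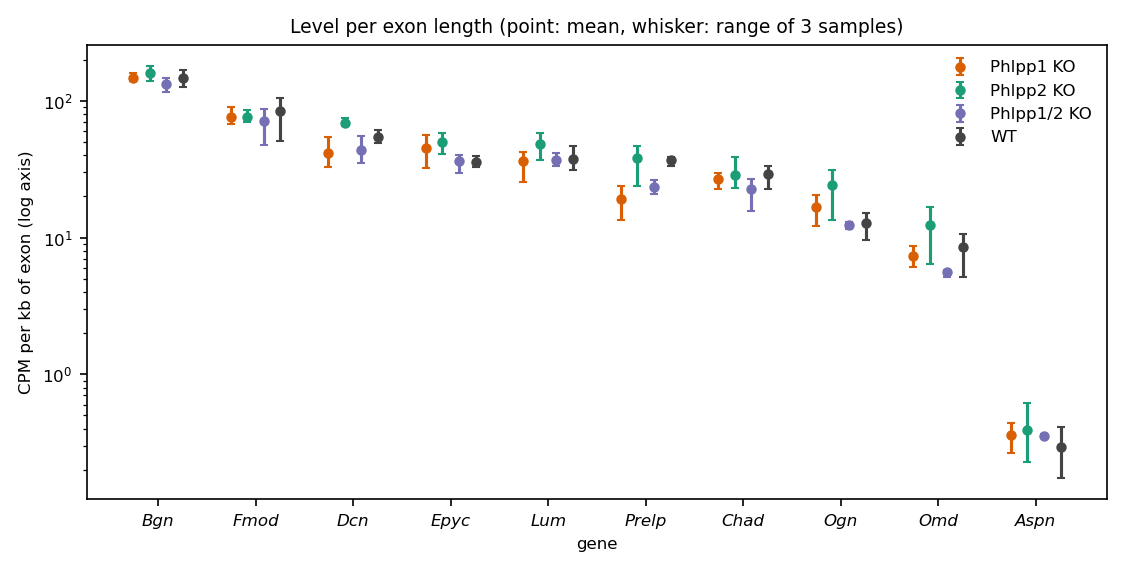
Level of each small leucine-rich proteoglycan in CPM per kilobase of merged exon, on a log axis, by genotype. Points are means and whiskers the range of 3 samples. Bgn lies highest, at 133 to 160 CPM per kb on average, and Aspn lowest, at 0.293 to 0.389.

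Summed over the 10 genes, the family held 1777 ± 192 CPM in Phlpp1 KO, 2152 ± 91.0 CPM in Phlpp2 KO, 1656 ± 110 CPM in Phlpp1/2 KO and 1916 ± 290 CPM in WT (SD, n = 3 each). Bgn alone made up 41.0% to 54.9% of that sum in every library. All 10 members varied more between samples of a genotype than the median gene: their biological coefficients of variation ran from 0.111 for Bgn to 0.281 for Omd, against 0.0976 for the median of all tested genes. In bulk RNA, fewer cells that express a gene and less of its RNA per cell cannot be told apart.

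No member passed the test in any comparison. With edgeR's quasi-likelihood test and Benjamini-Hochberg adjustment over all genes, 0 of 10 members had an adjusted p under 0.05 in Phlpp1 KO against WT, where 0.537% of all genes did. The count was also 0 in Phlpp2 KO against WT (0.121% of all genes) and in Phlpp1/2 KO against WT (0.235% of all genes). These 3 comparisons share their WT samples. DESeq2 called 1 member (Prelp) in Phlpp1 KO against WT, where it called 7.99% of all genes with an adjusted p. It called 0 members in Phlpp2 KO (2.41% of all genes) and 0 in Phlpp1/2 KO (1.00% of all genes), each against WT, and limma-voom called 0 in all 3. Without both libraries low in Xist edgeR called 0 in Phlpp1 KO and 0 in Phlpp1/2 KO. At an unadjusted p under 0.05, 1 member (Prelp, lower) stood out in Phlpp1 KO, 2 (Ogn and Epyc, higher) in Phlpp2 KO and 1 (Prelp, lower) in Phlpp1/2 KO, each against WT. Of all genes 9.54% were lower at that level in Phlpp1 KO, 8.48% were higher in Phlpp2 KO and 6.09% were lower in Phlpp1/2 KO, so counts of 1 or 2 in 10 are near the background.

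The signs of the fitted changes differed between genotypes. In Phlpp1 KO against WT 4 members were positive and 6 negative, with a median log2 fold change of -0.07, beside -0.01 over all genes. In Phlpp2 KO against WT 8 were positive and 2 negative, with a median of 0.36, beside -0.02 over all genes. In Phlpp1/2 KO against WT 2 were positive and 8 negative, with a median of -0.20, beside 0.00 over all genes on the same log2 scale. As the members vary together between samples, these medians describe the 12 libraries and carry no test.

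**Figure D2:**
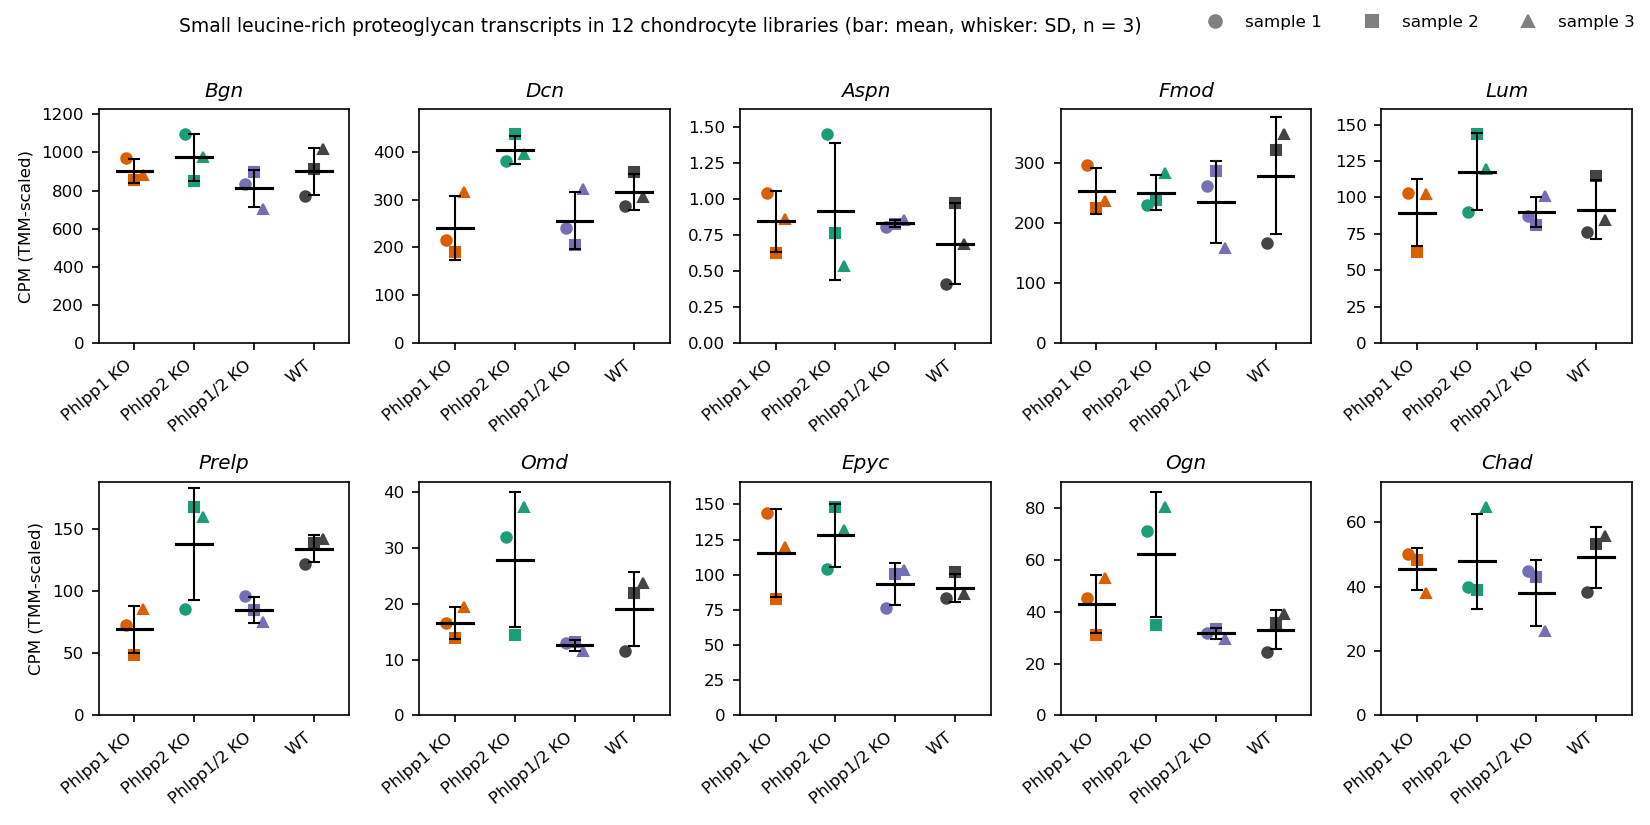
CPM of the 10 genes in the 12 libraries, with 1 panel per gene and each axis starting at 0. Symbols give the sample number within its genotype, bars the mean and whiskers the SD of 3 samples. The 3 Phlpp1 KO and 3 Phlpp1/2 KO samples of Prelp lie between 48.8 and 95.9 CPM, below the 3 WT samples at 121 to 141 CPM.

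Among class I members, biglycan, which carries a pair of chondroitin or dermatan sulfate chains and can act as a ligand of Toll-like receptors, overlapped between all genotypes. Bgn (chromosome X, 73483602 to 73495933, plus strand, mm10) held 855 to 971 CPM in Phlpp1 KO, 850 to 1095 CPM in Phlpp2 KO, 705 to 896 CPM in Phlpp1/2 KO and 772 to 1018 CPM in WT. Its log2 fold changes against WT were 0.00 in Phlpp1 KO (95% interval -0.26 to 0.26), 0.11 in Phlpp2 KO (-0.15 to 0.37) and -0.15 in Phlpp1/2 KO (-0.41 to 0.11). These are the narrowest intervals in the family. Bgn is X-linked, and Phlpp1 KO 1 and Phlpp1/2 KO 1, the libraries low in Xist, held 971 and 836 CPM, inside the range of the other 10 libraries.

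Decorin, which carries 1 such chain and binds both collagen fibrils and TGF-beta, was lower on average in both genotypes without Phlpp1, without passing the test. Dcn (chromosome 10, 97479609 to 97518143, plus strand, mm10) stood at 216, 190 and 317 CPM in Phlpp1 KO, 381, 437 and 395 CPM in Phlpp2 KO, 241, 205 and 323 CPM in Phlpp1/2 KO, and 286, 358 and 305 CPM in WT. The 3 Phlpp2 KO samples were above all other libraries. In both genotypes that lack Phlpp1, samples 1 and 2 were below every WT sample and sample 3 was within the WT range. Against WT, the log2 fold change of Dcn was -0.39 in Phlpp1 KO (SE 0.20, edgeR adjusted p = 0.293), 0.35 in Phlpp2 KO (SE 0.20, edgeR adjusted p = 0.463) and -0.30 in Phlpp1/2 KO (SE 0.20, edgeR adjusted p = 0.606). Asporin, the class I member that lacks such chains and binds collagen and TGF-beta in competition with decorin, was near the detection limit. Aspn (chromosome 13, 49544443 to 49567565, plus strand, mm10) held 19 to 31 counts in Phlpp1 KO, 14 to 40 in Phlpp2 KO, 25 to 29 in Phlpp1/2 KO and 9 to 27 in WT, with log2 fold changes against WT of 0.26 (SE 0.38), 0.38 (SE 0.38) and 0.24 (SE 0.37). The interval in Phlpp1 KO ran from -0.56 to 1.08 on the log2 scale, so the size of any change of Aspn is bounded only to that range at this depth.

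Among class II members, PRELP had the largest fitted log2 difference from WT in both genotypes that lack Phlpp1, without passing edgeR's test. PRELP, a member without sulfated chains of the chondroitin type, has a basic amino-terminal region that binds heparan sulfate, and links matrix collagen to basement membranes. Prelp (ENSMUSG00000041577, chromosome 1, 133910304 to 133921414, minus strand, mm10) stood at 73.0, 48.8 and 85.6 CPM in Phlpp1 KO, 86.0, 168 and 160 CPM in Phlpp2 KO, 95.9, 84.4 and 74.7 CPM in Phlpp1/2 KO, and 121, 139 and 141 CPM in WT. All 6 samples without Phlpp1 were below all 3 WT samples. The sum of 7 osteoblast markers was split in the same way. It was 314 to 345 CPM in Phlpp1 KO and 250 to 376 CPM in Phlpp1/2 KO, against 381 to 568 CPM in WT. The single markers did not all go that way. Of the 4 tested, 2 were higher and 2 lower in Phlpp1 KO and in Phlpp1/2 KO against WT. Phex (log2 fold change 0.29 and 0.10) and Ibsp (0.09 and 0.37) were higher. Sp7 (-0.59 and -0.48) and Col1a1 (-0.45 and -0.47) were lower. The part of these markers in the Prelp values was not tested. For Prelp, samples 2 and 3 of Phlpp2 KO were above WT and sample 1 was below it. The groups did not overlap in Phlpp1 KO against WT for Prelp alone among the 10 members, where 13.3% of all genes were lower without overlap, and likewise in Phlpp1/2 KO against WT, where 10.3% were.

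The log2 fold change of Prelp was -0.96 in Phlpp1 KO against WT (SE 0.25, interval -1.51 to -0.40, unadjusted p = 0.00321, adjusted p = 0.0981 by edgeR's quasi-likelihood test), so Phlpp1 KO held 0.516 times the WT level. In Phlpp1/2 KO against WT it was -0.66 (SE 0.25, interval -1.21 to -0.10, adjusted p = 0.365 by edgeR's test), and in Phlpp2 KO against WT 0.04 (SE 0.25, interval -0.51 to 0.59). Under DESeq2 the Phlpp1 KO difference passed, with an adjusted p of 0.00272. Over 14 alternatives its log2 fold change stayed between -1.13 and -0.74 and its adjusted p between 0.00272 and 0.240. Without both libraries low in Xist it was -0.98 (edgeR adjusted p = 0.184) in Phlpp1 KO and -0.74 (edgeR adjusted p = 0.507) in Phlpp1/2 KO. Prelp lies 27.516 Mb from Phlpp1 on the same chromosome, and Fmod 27.643 Mb from it. Fmod, 115.839 kb from Prelp, had log2 fold changes against WT of -0.14 in Phlpp1 KO (SE 0.27) and -0.25 in Phlpp1/2 KO (SE 0.27).

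Of the exonic bases of Prelp, 350 (9.68%) are also exons of the antisense gene Gm15851, which had 0.0453 to 0.344 CPM. Whether counting used strand is not stated in the sources used here. The promoter of Prelp is shown because Prelp had the lowest p of the family against WT. The RefSeq window of the GRCm38.p6 build, cut to the 237 bases upstream of the annotated transcripts (chr1:133921415-133921651, minus strand, 5′ to 3′), holds 1 match to the SOX motif AACAAT, read on the reverse strand and set in capitals as ATTGTT, 122 bases upstream of the RefSeq start.
Prelp: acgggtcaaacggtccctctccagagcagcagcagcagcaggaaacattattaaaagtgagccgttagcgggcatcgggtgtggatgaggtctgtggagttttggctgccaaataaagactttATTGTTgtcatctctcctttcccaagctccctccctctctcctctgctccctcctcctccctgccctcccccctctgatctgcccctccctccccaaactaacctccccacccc
Among 32851 RefSeq windows of 250 upstream bases, 9.42% hold AACAAT on either strand, 12.4% hold TATAAA and 6.75% hold the AP-1 motif TGANTCA, and neither of these other motifs has a match in the Prelp window. RefSeq windows were found for 8 of the 10 members, and Dcn and Lum are named only.

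Fibromodulin, which carries keratan sulfate chains and takes part in collagen cross-linking, and lumican, a keratan sulfate proteoglycan that spaces collagen fibrils, overlapped between every knockout and WT. Fmod (chromosome 1, 134037254 to 134048277, plus strand, mm10) ranged over 225 to 297 CPM in Phlpp1 KO, 231 to 284 CPM in Phlpp2 KO, 158 to 287 CPM in Phlpp1/2 KO and 168 to 348 CPM in WT. The low ends were set by Phlpp1/2 KO 3 and WT 1. Lum (chromosome 10, 97565128 to 97572703, plus strand, mm10) ranged over 62.8 to 103 CPM in Phlpp1 KO, 90.3 to 143 CPM in Phlpp2 KO, 81.3 to 101 CPM in Phlpp1/2 KO and 75.9 to 114 CPM in WT. The intervals of their log2 fold changes against WT reached from -0.85 to 0.46 for Fmod and from -0.54 to 0.86 for Lum over the 3 knockouts, so the size of any change is bounded only to those ranges.

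Osteoadherin, encoded by Omd, is a class II keratan sulfate proteoglycan of mineralised tissue that binds an integrin, and osteoglycin, encoded by Ogn, is a class III member also known as mimecan. Their genes are neighbours, 15.223 kb apart on chromosome 13 (Omd 49582462 to 49592822, Ogn 49608046 to 49624501, both on the plus strand, mm10). Ogn stood at 45.2, 31.0 and 52.8 CPM in Phlpp1 KO, 71.1, 34.7 and 80.4 CPM in Phlpp2 KO, 31.9, 33.4 and 29.5 CPM in Phlpp1/2 KO, and 24.5, 35.6 and 39.1 CPM in WT. Omd stood at 16.6, 13.8 and 19.5 CPM in Phlpp1 KO, 32.1, 14.4 and 37.4 CPM in Phlpp2 KO, 13.0, 13.1 and 11.5 CPM in Phlpp1/2 KO, and 11.5, 22.0 and 23.7 CPM in WT. For both genes Phlpp2 KO 1 and 3 were the highest of the 12 libraries, Phlpp2 KO 2 fell within the range of WT, and the Phlpp1/2 KO samples lay close together.

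Against WT, the log2 fold change of Ogn was 0.90 in Phlpp2 KO (SE 0.30, interval 0.24 to 1.56, edgeR adjusted p = 0.242), 0.37 in Phlpp1 KO (SE 0.30, edgeR adjusted p = 0.522) and -0.07 in Phlpp1/2 KO (SE 0.30, edgeR adjusted p = 0.959). The interaction, which is the log2 change of Phlpp1/2 KO against WT minus the sum of both single knockouts' changes, was -1.34 for Ogn (SE 0.42, interval -2.27 to -0.42, edgeR adjusted p = 0.174). For Omd the log2 fold change was 0.54 in Phlpp2 KO (SE 0.33), -0.21 in Phlpp1 KO (SE 0.34) and -0.61 in Phlpp1/2 KO (SE 0.34), and its interaction was -0.94 (SE 0.48, edgeR adjusted p = 0.407). Markers of fibroblasts and perichondrium, and of osteoblasts, followed both genes only in part inside Phlpp2 KO. Both marker sums were lowest in sample 2, as were Omd and Ogn. The sums were highest in sample 1, whereas both genes were highest in sample 3. The 11 fibroblast and perichondrial markers summed to 1266, 793 and 971 CPM in Phlpp2 KO samples 1 to 3. In WT they summed to 820, 940 and 1154 CPM. The 7 osteoblast markers summed to 679, 315 and 496 CPM in Phlpp2 KO, against 381, 392 and 568 CPM in WT. The part of these markers in the values of Omd and Ogn was not tested.

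The promoters of Omd and Ogn are shown because these neighbours varied together. Both are the 250 bases upstream of the RefSeq start in GRCm38.p6, on the plus strand, 5′ to 3′ (Omd chr13:49582212-49582461, Ogn chr13:49607765-49608014). Capitals in Ogn mark overlapping matches to TATAAA on the forward strand and to its reverse TTTATA, 222 and 224 bases upstream of the start. Neither window matches AACAAT or TGANTCA, and the Omd window matches none of the 3 motifs.
Omd: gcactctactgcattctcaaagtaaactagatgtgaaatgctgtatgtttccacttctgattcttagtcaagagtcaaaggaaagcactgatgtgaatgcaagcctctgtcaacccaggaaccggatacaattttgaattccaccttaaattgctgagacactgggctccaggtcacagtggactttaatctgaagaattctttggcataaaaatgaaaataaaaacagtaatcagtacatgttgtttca
Ogn: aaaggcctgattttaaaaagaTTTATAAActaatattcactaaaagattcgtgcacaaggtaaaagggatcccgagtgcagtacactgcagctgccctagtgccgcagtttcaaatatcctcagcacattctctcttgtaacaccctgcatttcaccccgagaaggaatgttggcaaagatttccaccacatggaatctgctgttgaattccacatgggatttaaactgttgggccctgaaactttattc
The Omd transcript also contains a stretch of up to 184 bases that is at least 95% identical to transcripts of 118 other genes, so some of its reads may have been counted elsewhere or dropped. Omd, Ogn and Aspn all lie inside the antisense gene Cenpp, which shares 7 exonic bases with Aspn and 0 with Omd and Ogn and had 4.05 to 8.17 CPM.

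Epiphycan, the class III member named for its place in epiphyseal cartilage, was highest on average in Phlpp2 KO, without passing the test. Epyc (chromosome 10, 97644068 to 97682454, plus strand, mm10) stood at 144, 82.5 and 120 CPM in Phlpp1 KO, 104, 148 and 132 CPM in Phlpp2 KO, 76.3, 101 and 103 CPM in Phlpp1/2 KO, and 83.8, 102 and 86.4 CPM in WT. Its 3 Phlpp2 KO samples were above the 3 WT samples, the nearest being 104 against 102 CPM. Of the 10 members only Epyc and Dcn had no overlap in that comparison, both higher, where 10.3% of all genes were higher without overlap. The log2 fold change of Epyc was 0.50 in Phlpp2 KO against WT (SE 0.20, interval 0.05 to 0.94, edgeR adjusted p = 0.318), 0.35 in Phlpp1 KO (SE 0.20, edgeR adjusted p = 0.365) and 0.04 in Phlpp1/2 KO (SE 0.20, edgeR adjusted p = 0.965). Its interaction was -0.80 (SE 0.28, edgeR adjusted p = 0.215), which DESeq2 placed just under the threshold at an adjusted p of 0.0497, where it called 4.84% of all genes. Without both libraries low in Xist, the interaction of Epyc shrank to -0.51 (edgeR adjusted p = 0.563). Those libraries, Phlpp1 KO 1 and Phlpp1/2 KO 1, held 144 and 76.3 CPM of Epyc. Of the exonic bases of Epyc, 1041 (40.6%) also belong to the antisense gene Gm10754, which had 0 counts in all 12 libraries.

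Chondroadherin, which carries no sulfated chains of the chondroitin type and binds collagen and an integrin of chondrocytes, overlapped between every knockout and WT. Chad (chromosome 11, 94565047 to 94569127, plus strand, mm10) ranged over 38.0 to 50.01 CPM in Phlpp1 KO, 38.9 to 64.8 CPM in Phlpp2 KO, 26.1 to 44.9 CPM in Phlpp1/2 KO and 38.2 to 55.8 CPM in WT. Its log2 fold changes against WT were -0.11, -0.04 and -0.37 in Phlpp1 KO, Phlpp2 KO and Phlpp1/2 KO (SE 0.25 each).

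**Figure D3:**
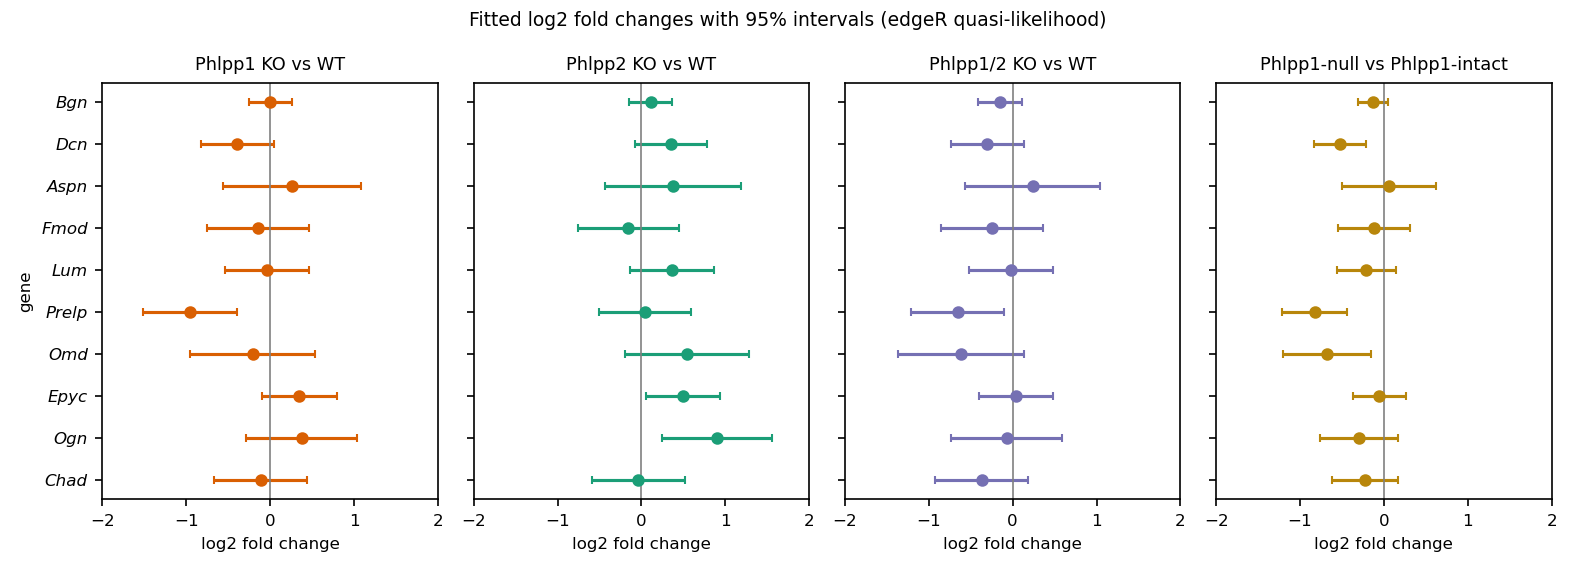
Fitted log2 fold changes of the 10 genes with 95% intervals from edgeR's quasi-likelihood fit, in Phlpp1 KO, Phlpp2 KO and Phlpp1/2 KO against WT and in the 6 samples without against the 6 with Phlpp1. The intervals of Prelp lie below 0 in 3 of the 4 panels and reach from -0.51 to 0.59 in Phlpp2 KO against WT.

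Between knockouts, Phlpp1/2 KO differed from Phlpp2 KO in the most members before adjustment. All 10 log2 fold changes in Phlpp1/2 KO against Phlpp2 KO were negative, with a median of -0.42 beside 0.00 over all genes. At an unadjusted p under 0.05, 6 of 10 members were lower (Omd, Dcn, Ogn, Prelp, Epyc and Bgn), where 4.91% of all genes were, and 4 (Omd, Dcn, Ogn and Epyc) were lower without overlap, where 4.90% of all genes were. None passed adjustment, where 0.0724% of all genes did, and the edgeR adjusted p of these 6 members was 0.516 to 0.564. Without both libraries low in Xist it was 0.920 for each of the 6. The log2 fold change was -1.15 for Omd (SE 0.34), -0.97 for Ogn (SE 0.30), -0.70 for Prelp (SE 0.25), -0.66 for Dcn (SE 0.20), -0.45 for Epyc (SE 0.20) and -0.26 for Bgn (SE 0.12). Because the members vary together between samples, the count of 6 carries no test. Phlpp2 KO 2 held 14.4 CPM of Omd and 34.7 CPM of Ogn. That is near the Phlpp1/2 KO samples, at 11.5 to 13.1 CPM of Omd and 29.5 to 33.4 CPM of Ogn. Chondrocyte markers summed to 27523 to 42762 CPM in Phlpp1/2 KO and 35143 to 43658 CPM in Phlpp2 KO, and fibroblast and perichondrial markers to 709 to 941 CPM in Phlpp1/2 KO and 793 to 1266 CPM in Phlpp2 KO. Osteoblast markers summed to 250 to 376 CPM in Phlpp1/2 KO and 315 to 679 CPM in Phlpp2 KO, with a median log2 fold change of -0.48 over the 4 tested. All 7 markers of hypertrophic chondrocytes had negative log2 fold changes in Phlpp1/2 KO against Phlpp2 KO, with a median of -0.34, and 0 passed the test. Ibsp is counted among both the osteoblast and the hypertrophic markers. The part of these markers in the members' differences was not tested.

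In Phlpp1 KO against Phlpp2 KO 3 members (Prelp, Dcn and Omd, all lower) had an unadjusted p under 0.05, where 5.61% of all genes were lower at that level, and 0 passed adjustment, where 0.151% did. Prelp and Dcn had no overlap, where 6.77% of all genes were lower without overlap. Prelp had a log2 fold change of -0.996 (SE 0.25, edgeR adjusted p = 0.208), Dcn of -0.75 (SE 0.20, edgeR adjusted p = 0.233) and Omd of -0.75 (SE 0.33, edgeR adjusted p = 0.471). DESeq2 called Prelp (adjusted p = 0.00262) and Dcn (adjusted p = 0.0101), where it called 1.1% of all genes. Without both libraries low in Xist, edgeR gave -1.03 for Prelp (adjusted p = 0.486) and -0.67 for Dcn (adjusted p = 0.527). Of the 6 fits with 1 library left out, edgeR called Prelp in 1, without Phlpp2 KO 1 (adjusted p = 0.0275). That library's own Prelp value runs against the difference, so the call is no support for it, and the other 5 fits called no member. Over all genes these 6 fits called 8 to 207, against 25 with every library kept. In Phlpp1/2 KO against Phlpp1 KO no member had an unadjusted p under 0.05, where 7.90% of all genes did, and none passed adjustment, where 0.0121% did. Only Omd was lower without overlap there, as were 6.02% of all genes. No member passed the interaction test, where 0.0483% of all genes did, and Ogn and Epyc were negative at an unadjusted p under 0.05, where 10.1% of all genes were.

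The 6 samples without Phlpp1 (Phlpp1 KO and Phlpp1/2 KO) were then set against the 6 with it (Phlpp2 KO and WT), a comparison added after the values had been seen. Prelp ranged over 48.8 to 95.9 CPM without Phlpp1 and 86.0 to 168 CPM with it, overlapping through Phlpp2 KO 1. Its log2 fold change was -0.83 (SE 0.18, interval -1.22 to -0.43, edgeR adjusted p = 0.0778), that of Omd -0.68 (SE 0.24, edgeR adjusted p = 0.231) and that of Dcn -0.52 (SE 0.14, interval -0.83 to -0.22, edgeR adjusted p = 0.137). These 3 members were lower at an unadjusted p under 0.05, where 8.36% of all genes were, and no member of the 10 was free of overlap, where 1.09% of all genes were. In this comparison all 7 hypertrophic markers were also negative (median log2 fold change -0.43, 2 at an unadjusted p under 0.05), as were 3 of 4 tested osteoblast markers (median -0.36, 2 at that level), and their part in the members' values was not tested. Ibsp is counted in both lists. Against WT, 3 hypertrophic markers were higher and 4 lower in Phlpp1 KO, and likewise in Phlpp1/2 KO. By edgeR 0 of 10 passed adjustment, where 0.592% of all genes did, whereas DESeq2 called Prelp (adjusted p = 6.62e-05) and Dcn (adjusted p = 0.00592), where it called 2.91% of all genes. Without both libraries low in Xist, edgeR gave -0.89 for Prelp (adjusted p = 0.196) and -0.46 for Dcn (adjusted p = 0.340). Of the 12 fits with 1 library left out, edgeR called Prelp in 1, without Phlpp2 KO 1 (adjusted p = 0.00965), and Dcn in 1, without Phlpp1 KO 3 (adjusted p = 0.0391). Over all genes these 12 fits called 38 to 568, against 98 with every library kept. The values of Phlpp2 KO 1 and Phlpp1 KO 3 run against the differences, so the calls of Prelp and Dcn are no support for them. For the 6 samples without Phlpp2 against the 6 with it, 0 members had an unadjusted p under 0.05, where 6.94% of all genes did, and 0 passed adjustment, where 0.0906% did.

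Across the 12 libraries 41 of the 45 pairwise correlations of the members' log2 CPM were positive. By Pearson's r with 100000 permutations and Benjamini-Hochberg adjustment over the 45 pairs, 8 pairs passed 0.05, all positive, and 6 of the 8 also passed by Spearman's rho. The closest pair was Omd and Ogn (r = 0.90, permutation p = 0.00016, adjusted p = 0.0072; rho = 0.92, permutation p = 6e-05, adjusted p = 0.0027). Leaving out the 2 libraries farthest from the median of Omd gave r = 0.70, and taking each library's deviation from its genotype's mean gave r = 0.96. Lumican and epiphycan, whose genes lie 71.364 kb apart with the almost silent Kera between them (at most 0.144 CPM), gave r = 0.80 (permutation p = 0.00196, adjusted p = 0.022; rho = 0.83, permutation p = 0.00138, adjusted p = 0.0155), with r = 0.70 without the 2 farthest libraries and 0.85 on deviations. Decorin and lumican, 46.984 kb apart, gave r = 0.74 (permutation p = 0.00509, adjusted p = 0.0382; rho = 0.76, permutation p = 0.00561, adjusted p = 0.0424), with r = 0.57 without the 2 farthest libraries and 0.71 on deviations.

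Other pairs joined genes on different chromosomes. Bgn correlated with Omd (r = 0.82, permutation p = 0.00087, adjusted p = 0.0148; rho = 0.90, permutation p = 0.00015, adjusted p = 0.00337), with Ogn (r = 0.75, permutation p = 0.005, adjusted p = 0.0382; rho = 0.84, permutation p = 0.00105, adjusted p = 0.0155) and with Fmod (r = 0.72, permutation p = 0.0081, adjusted p = 0.0456; rho = 0.62, permutation p = 0.0351, adjusted p = 0.149). Without the 2 libraries farthest in the first gene, r was 0.76, 0.67 and 0.88, and on deviations 0.74, 0.70 and 0.79. Fmod correlated with Chad (r = 0.81, permutation p = 0.00099, adjusted p = 0.0148; rho = 0.76, permutation p = 0.00566, adjusted p = 0.0424), with r = 0.67 without the 2 farthest libraries and 0.82 on deviations. Dcn and Prelp gave r = 0.73 (permutation p = 0.00793, adjusted p = 0.0456; rho = 0.71, permutation p = 0.0131, adjusted p = 0.084), but 0.59 without the 2 farthest libraries and 0.40 on deviations from the genotype means. The 7 pairs that share a chromosome had a median r of 0.44 and the other 38 pairs one of 0.31, and Prelp and Fmod, near each other on chromosome 1, gave r = 0.31.

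**Figure D4:**
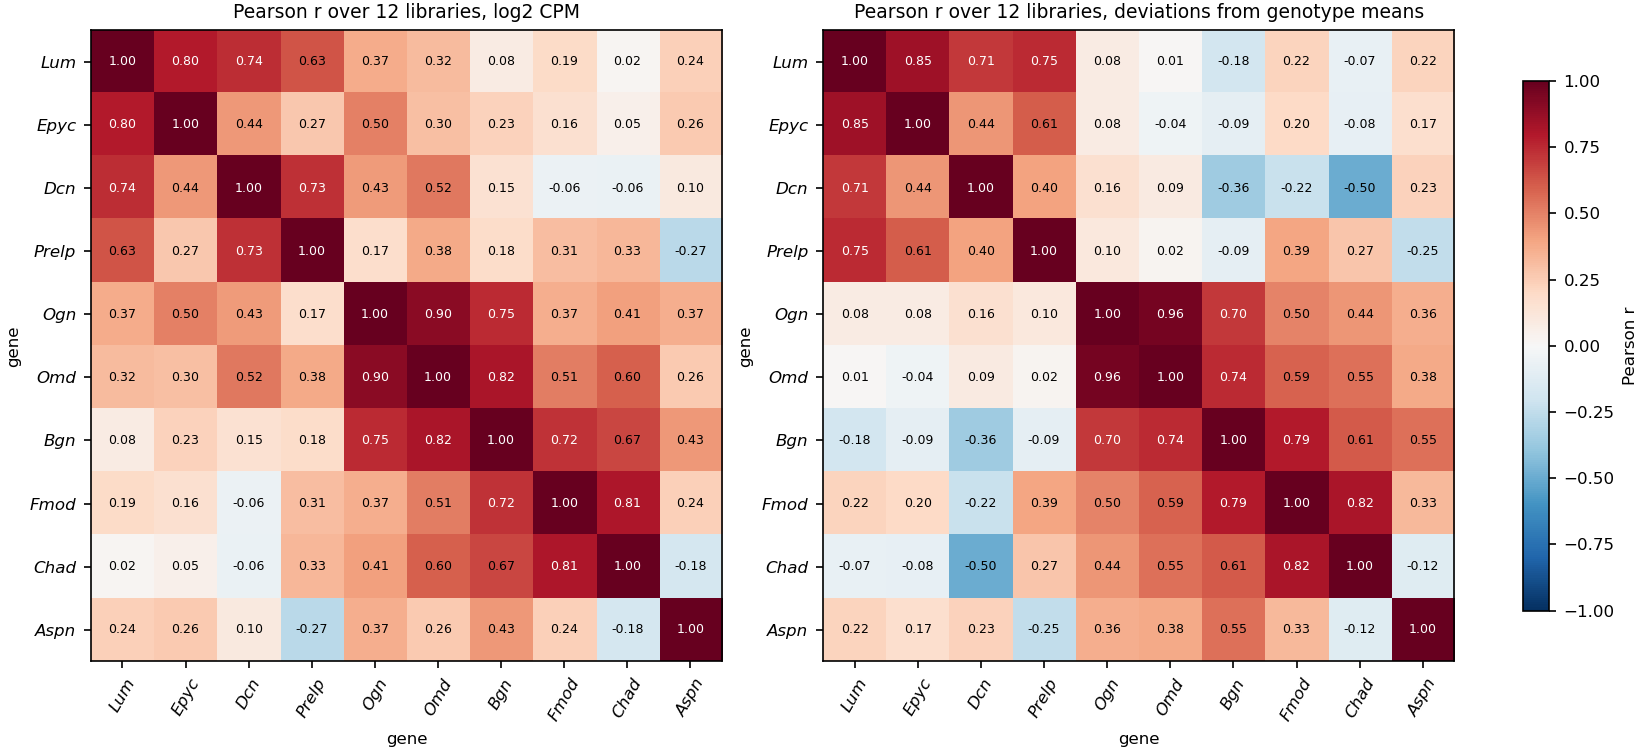
Pearson's r between the 10 genes over 12 libraries, from log2 CPM (left) and from deviations from the genotype means (right). Omd and Ogn have an r of 0.90 in the left panel and 0.96 in the right, and Prelp has an r with Lum of 0.63 in the left panel and 0.75 in the right.

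**Figure D5:**
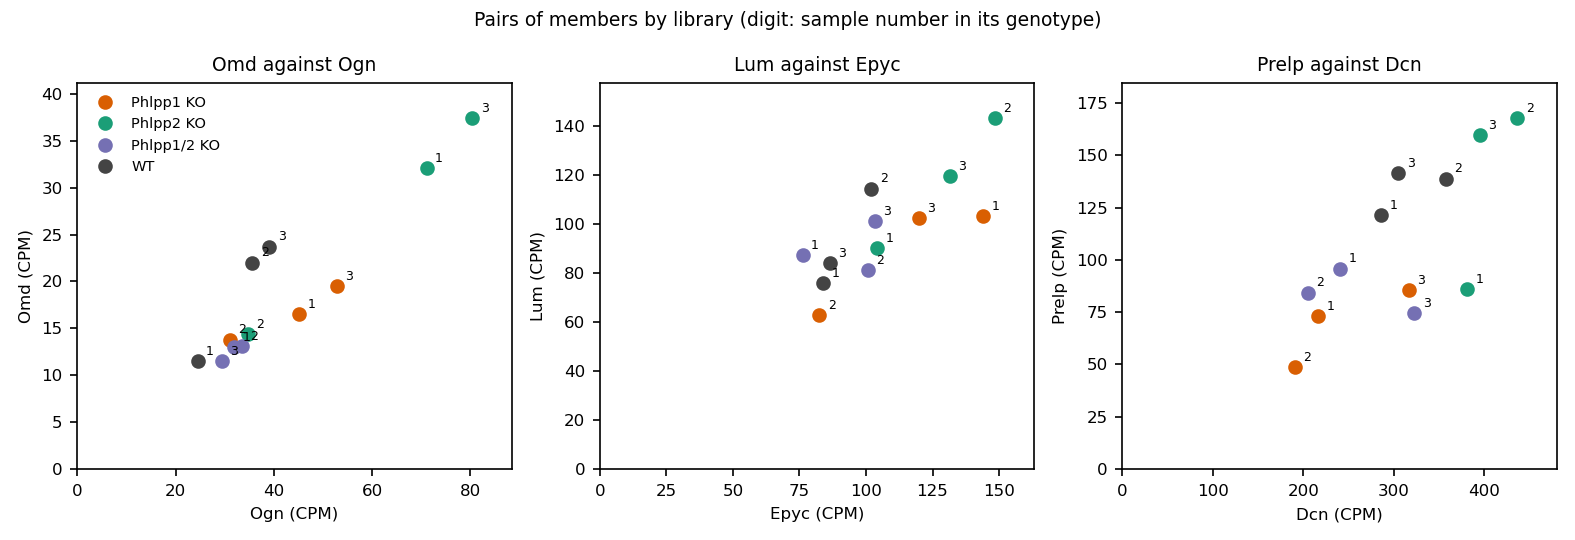
CPM of Omd against Ogn, Lum against Epyc and Prelp against Dcn in each library, coloured by genotype and marked with the sample number, with axes starting at 0. Phlpp2 KO 1 and 3 lie far out for Omd and Ogn, at 32.1 and 37.4 CPM of Omd, and in the Prelp panel Phlpp2 KO 1 lies at 86.0 CPM, apart from samples 2 and 3.

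For each member the 3 tested genes with the most similar pattern were taken by Pearson's r of log2 CPM over the 12 libraries, among 9015 genes averaging at least 10 CPM. They were Cp, Pqlc3 and Ism1 for Dcn (r = 0.91 to 0.95). For Bgn they were Cpxm2, Tgfb2, which encodes a TGF-beta ligand, and Serpinh1, which encodes a collagen chaperone (r = 0.91 to 0.96). For Fmod they were Sparc, which encodes a collagen-binding matrix protein, Chadl, a relative of chondroadherin, and Rcn3 (r = 0.94 to 0.96). Those of Prelp included Cdc42ep4 (r = 0.96) and C1qtnf6 (r = 0.95), and those of Omd included Ogn (r = 0.90) and Fam46a (r = 0.86). Lum was most like Ypel5, Ugp2 and Ap3s1 (r = 0.90 to 0.92), Ogn like Dcaf6, Omd and Sema3d (r = 0.87 to 0.95), Epyc like Hcfc2, Slc30a5 and Tbc1d23 (r = 0.87 to 0.88), Chad like Unc50, Nuak1 and Mdga1 (r = 0.90 to 0.92) and Aspn like Farsb, Rpp40 and Mff (r = 0.82 to 0.86). Each is among the highest of 9015 values over libraries that share their depth and genotype, so it is given as a description.

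For the lists below, the share of all genes with an unadjusted p under 0.05 in either direction was 20.4% in Phlpp1 KO, 13.8% in Phlpp2 KO and 11.1% in Phlpp1/2 KO, each against WT. Of 8 further family members, 5 passed the filter and 0 passed edgeR's test against WT in any knockout, with 1, 0 and 1 at an unadjusted p under 0.05 in Phlpp1 KO, Phlpp2 KO and Phlpp1/2 KO, and 0 called by DESeq2 or limma-voom. Tsku, a non-canonical member that modulates several growth factors, averaged 82.5 CPM with log2 fold changes of 0.03, 0.18 and 0.01 in Phlpp1 KO, Phlpp2 KO and Phlpp1/2 KO (SE 0.13 each), while Optc, between Prelp and Fmod, was at most 0.407 CPM. Of 16 collagens that these proteins bind or accompany, 0 passed in any of the 3 comparisons by edgeR, DESeq2 or limma-voom and 0 had an unadjusted p under 0.05 by edgeR, with median log2 fold changes of 0.05, -0.01 and -0.17. Col2a1, the main collagen of cartilage, had log2 fold changes of -0.02, -0.16 and -0.26 (SE 0.19 each). All 16 collagens had a negative interaction, with a median of -0.16, beside 0.04 over all genes, and 0 of them passed or had an unadjusted p under 0.05.

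Of 21 tested enzymes of the linker and of chondroitin and dermatan sulfate, 0 passed edgeR's test against WT and 3, 5 and 4 had an unadjusted p under 0.05 in Phlpp1 KO (20.4% of all genes), Phlpp2 KO (13.8%) and Phlpp1/2 KO (11.1%), with medians of -0.08, -0.08 and -0.10. Xylt1, which starts the chain on the core protein, had log2 fold changes of -0.13, -0.22 and -0.28 (SE 0.16 each), and Chst11, a chondroitin sulfotransferase, had -0.16, -0.12 and -0.30 (SE 0.11 each). Of 10 enzymes of keratan sulfate and tyrosine sulfation, led by B4galt1 with log2 fold changes of -0.30, -0.06 and -0.13 (SE 0.12 each), 0 passed and 2, 0 and 2 had an unadjusted p under 0.05. Of 15 tested proteases and inhibitors that process or cleave these proteins, led by Timp3 at -0.13, -0.03 and -0.34 (SE 0.18 each), 0 passed, 4, 1 and 3 had an unadjusted p under 0.05, and 13 were negative in Phlpp1 KO, with a median of -0.16. Of 17 tested TGF-beta and BMP ligands, receptors and latency proteins and targets, led by Ltbp3 at 0.00, -0.16 and -0.16 (SE 0.07 each), 0 passed and 2, 3 and 2 had an unadjusted p under 0.05. DESeq2 called Mmp13 in Phlpp1 KO, Chpf in Phlpp2 KO, and Chpf2 and B3gnt7 in Phlpp1/2 KO among these enzymes, proteases and growth factors, all named after their values were seen, where it called 7.99%, 2.41% and 1.00% of all genes in Phlpp1 KO, Phlpp2 KO and Phlpp1/2 KO, and limma-voom called none.

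Of 15 tested receptors and signal proteins that the family is known to engage, 1 passed in Phlpp1 KO against WT, where 0.537% of all genes did, and 0 in the other knockouts. At an unadjusted p under 0.05 were 5, 2 and 1 in Phlpp1 KO (20.4% of all genes), Phlpp2 KO (13.8%) and Phlpp1/2 KO (11.1%). Myd88, the adaptor of Toll-like receptors, fell in Phlpp1 KO to 45.2 ± 2.39 CPM, against 59.8 ± 1.81 CPM in WT (SD, n = 3 each; log2 fold change -0.40, edgeR adjusted p = 0.0421). DESeq2 also called Myd88 (adjusted p = 0.00147), and limma-voom did not (adjusted p = 0.0510). Leaving out any 1 of the 6 libraries, or both libraries low in Xist, ended edgeR's call, with adjusted p of 0.0736 (without Phlpp1 KO 3) to 0.168 (without WT 2) and a log2 fold change between -0.43 and -0.35. DESeq2 also called Met in Phlpp1 KO, the receptor of hepatocyte growth factor, named after its values were seen. Its calls of Myd88 and Met stand beside 7.99% of all genes called by DESeq2 in that comparison. Lrp1, a receptor that takes up decorin, had log2 fold changes of -0.27, -0.05 and -0.22 in Phlpp1 KO, Phlpp2 KO and Phlpp1/2 KO (SE 0.09 each) and did not pass.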

How the data were processed

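The authors' deposited table holds raw counts of reads per gene, with no normalization, for 12 libraries. Per the submitters' processing notes, bcl2fastq 2.17, STAR 2.5.2b and featureCounts of Subread 1.5.2 were used with the mm10 build; the strand setting and annotation release are not stated in the sources used here. Per the labels' protocols, libraries were made from total RNA with the NEBNext Ultra II kit. Of 49315 genes, 174 had no symbol (0.00419% of counts) and were kept, and no column of per-sample values was unused. 1 count was worth 0.0295 to 0.0453 CPM.

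All 12 libraries entered 1 edgeR 4.0.16 model in R 4.3.3 with a term for genotype, TMM scaling, the tool's own filter on low counts and robust quasi-likelihood tests. P values were adjusted over 16565 genes by Benjamini-Hochberg, and genes under 0.05 were called. SE is the log2 fold change over the square root of F, and log2 CPM used a prior count of 2. Members, lists and naming rules were chosen with earlier results of these data known: all members are named, and from each list the called genes, or otherwise among the 3 with the highest mean CPM; Optc and Kera are named for their position. Positions and lengths came from GENCODE vM21, promoters from RefSeq, and near-identical transcripts from BLAST 2.17.0 (at least 95% over 150 bases). Alternatives were RLE size factors, DESeq2 1.42.0, limma-voom 3.58.1, no filter, only the compared groups, a replicate block, each sample left out, both libraries low in Xist left out and genes without a symbol left out. No sample's counts matched another's within sampling noise. The tests were checked on simulated data. Some of the genes most like Prelp and Omd are not reported here.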

Additional observations from a re-analysis of the deposited data

How the results depend on the processing

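Members called kept a count of 0 under RLE size factors, limma-voom, no filter and with genes lacking a symbol left out, in all 9 comparisons. DESeq2 gave 1 in Phlpp1 KO against WT, 2 in Phlpp1 KO against Phlpp2 KO, 1 in the interaction and 2 for samples without against with Phlpp1, and fitting only Phlpp1/2 KO and WT gave 1 (Prelp, adjusted p = 0.0422). Leaving out each sample gave 0 to 1 in Phlpp1 KO against Phlpp2 KO and for samples without against with Phlpp1. Replicate numbers did not pair the samples: 6 of 18 same-number pairs had a correlation of deviations over 0.1 (range -0.45 to 0.59). With the replicate block the count of members called was 0 in all 9 comparisons and the Bgn log2 fold change, Phlpp1 KO vs WT, was -0.00228.

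Over all genes, calls in Phlpp1 KO against WT numbered 89, and 998 with DESeq2, 461 without a filter, 1163 in a fit of only those groups, 245 with the block, 18 without both libraries low in Xist and 16 to 57 with 1 sample left out. For Phlpp2 KO against WT the 20 calls became 316, 110, 26 and 84 under DESeq2, no filter, only those groups and the block, and 9 to 22 with 1 sample left out. For Phlpp1/2 KO against WT the 39 calls became 157, 102, 57 and 29 in the same order, and 18 to 34.

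Among single members, changes of sign occurred for values that were not called. With 1 sample left out, log2 fold changes in Phlpp1 KO against WT ran from -0.079 to 0.095 for Bgn, -0.24 to 0.010 for Chad, -0.39 to 0.044 for Fmod and -0.15 to 0.18 for Lum. In Phlpp2 KO against WT they ran from -0.10 to 0.73 for Aspn, -0.31 to 0.11 for Chad, -0.40 to 0.032 for Fmod and -0.11 to 0.29 for Prelp. In Phlpp1/2 KO against WT they ran from -0.024 to 0.17 for Epyc, -0.13 to 0.17 for Lum and -0.23 to 0.066 for Ogn. For samples without against with Phlpp1 they ran from -0.069 to 0.30 for Aspn and -0.15 to 0.052 for Epyc. With limma-voom Prelp was -0.017 in Phlpp2 KO against WT. Without both libraries low in Xist, Bgn was -0.035 in Phlpp1 KO and Lum 0.0080 in Phlpp1/2 KO, each against WT, and Aspn -0.018 without against with Phlpp1. Of 764 alternative values of single members, 723 kept sign and side of the threshold, 10 moved past it and 31 changed sign; the cause was not tested.

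Of the correlated pairs, 8 passed, 5 without both libraries low in Xist and 1 without the 2 libraries farthest from the median, where fewer libraries remain. By the longest transcript in place of merged exons, Bgn stood at 337 CPM per kb and not 147. The order of the genes was kept over all 12 libraries but not within each genotype. In Phlpp2 KO decorin (86.1 CPM per kb) then stood above fibromodulin (80.5 CPM per kb). Decorin moved from rank 4 to rank 3 in Phlpp1 KO, and lumican from rank 4 to rank 5 in Phlpp1/2 KO. With 3 samples a group and the spread of these genes, intervals reach about 0.5 to 1 log2 units for most members. Changes of that size or smaller could be missed. After adjustment, edgeR also left uncalled Prelp at -0.96 in Phlpp1 KO against WT and Omd at -1.15 in Phlpp1/2 KO against Phlpp2 KO.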

Other observations

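Of 8 superficial zone markers, 1 passed edgeR's test in Phlpp1 KO against WT, where 0.537% of all genes did, and 0 in the other knockouts, where 0 and 1 had an unadjusted p under 0.05. Sema3e, which encodes a semaphorin, rose in Phlpp1 KO to 142 ± 9.64 CPM, against 102 ± 5.60 CPM in WT (SD, n = 3 each; log2 fold change 0.49, edgeR adjusted p = 0.00993). The other 7 markers were fitted lower in Phlpp1 KO, and the median log2 fold change of the 8 was -0.11. At an unadjusted p under 0.05, 1 was higher and 1 lower there, where 20.4% of all genes were in either direction. DESeq2 and limma-voom also called Sema3e, but edgeR did not without WT 2 (adjusted p = 0.0817), without Phlpp1 KO 2 (adjusted p = 0.0532) or without both libraries low in Xist (adjusted p = 0.0513). Prg4, which encodes lubricin, had a log2 fold change of -0.62 in Phlpp1 KO (SE 0.19, edgeR adjusted p = 0.121), which DESeq2 called. In Phlpp1 KO against WT DESeq2 called 7.99% of all genes. Markers of skeletal muscle summed to 8.05 to 18.7 CPM in Phlpp2 KO, against 28.2, 127 and 24.2 CPM in WT samples 1 to 3. WT 2 alone set the high end. All 9 tested markers were negative in Phlpp2 KO against WT. Of them, 6 had an unadjusted p under 0.05 (13.8% of all genes in either direction) and 0 passed by edgeR. DESeq2 called 3 (Actc1, Myh3 and Myog, named after their values were seen), where it called 2.41% of all genes. Of the genes most like Bgn, Serpinh1 had r = 0.97 on deviations from the genotype means, above its pooled r of 0.91.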
